A study of Homo sapiens with 18 samples.

Results

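The second of 3 RNA-seq experiments on ABCC1 overexpression in BE(2)-m17 cells compared 3 ABCC1-overexpressing cultures with 3 empty vector control cultures, 6 of the 18 libraries of the series. Its members were chosen by their titles, as the libraries of the second experiment, and no measured value entered the choice. BE(2)-m17 is an established human neuroblastoma line. Both groups carried the vector pSBbi-Hyg-APP, so the controls overexpressed the amyloid precursor protein too. In addition, the control cells, called Puro, held the empty vector pSBbi-Pur, and the ABCC1 cells held pSBbi-Pur-ABCC1(WT). Cells of both groups were plated at 14000000 per well in medium with 10% serum and lysed on day 4. By the study's methods, stable lines were selected with drugs, and a well per line was plated each week without the drugs. Neither the labels nor the methods say whether a line is 1 clone or which week a replicate number stands for. The p-values measure the spread between cultures of 1 line a group. Following the order in which the study lists its repeat experiments, these were taken as cryopreserved cells, and the libraries of the third experiment as newly transfected cells.

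ABCC1, also called MRP1, is an ATP-binding cassette exporter of the plasma membrane that carries glutathione conjugates, organic anions and many drugs out of cells and is known for its part in drug resistance of tumors, neuroblastoma among them. Immediate early genes are transcribed within minutes of a stimulus, without new protein synthesis, and in neurons follow activity. Replication-dependent histone genes are transcribed in S phase, and their mRNAs end in a stem-loop and not in a poly(A) tail. Genes of mitosis peak later in the cycle, in G2 and M phase.

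The depth of the libraries, in assigned read pairs, was 19577853 to 27815432 for Puro and 23692912 to 30996228 for ABCC1. The vector sequence of ABCC1 had 2, 8 and 3 counts in the Puro libraries and 148783, 84990 and 123215 in the ABCC1 libraries, so every library matched its label. Native ABCC1 was measured apart from the insert. Levels are in counts per 1000000 counts of the library (CPM). Its level was 76.3, 90.8 and 73.5 CPM in the Puro libraries and 108, 93.6 and 91.5 CPM in the ABCC1 libraries, a log2 fold change (log2FC) of 0.28 ± 0.17 (SE) that did not pass the test (adjusted p = 0.322, edgeR). The vector copy of APP was at 247 ± 14.5 CPM (SD, n = 3) in Puro and 230 ± 22.3 CPM (SD, n = 3) in ABCC1 libraries (exact permutation test, two-sided p = 0.3). The puromycin resistance gene of the vectors was 1.71-fold higher in Puro, at 9994 ± 1717 CPM against 5829 ± 385 CPM (SD, n = 3 each, exact permutation test, p = 0.1). The neuroblastoma identity of the cells was checked on 21 regulators of the adrenergic state, of which 18 were well expressed. MYCN lay at 1748 CPM per kb of exon and HAND2 at 119 CPM per kb. Of 5 marker lists of other cell types, only the fibroblast list had well-expressed members, 2 of 10 (LUM and THY1), and its summed level was 25.0 to 37.9 CPM per kb in Puro and 31.1 to 33.4 in ABCC1 libraries. The summed levels were 10.2 to 13.2 and 7.24 to 11.8 CPM per kb for the 12 Schwann cell markers, and 7.81 to 12.5 and 5.07 to 7.83 for the 8 epithelial markers. They were 9.04 to 10.9 and 4.23 to 6.49 CPM per kb for the 12 blood markers, and 5.48 to 7.82 and 2.45 to 4.12 for the 7 endothelial markers found. The blood and endothelial sums did not overlap between the groups, were higher in Puro, and came from genes near the background.

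Reads fell on silent genes in every library, and more of them in the controls. Background was measured on 266 olfactory receptor genes whose span holds no other annotated gene, receptors of the nasal epithelium taken as silent in these cells. It was 0.855, 0.566 and 0.605 CPM per kb in Puro 1, 2 and 3 and 0.133, 0.342 and 0.463 in ABCC1 1, 2 and 3. The 2 groups did not overlap, and the mean was 2.16-fold higher in Puro (0.675 ± 0.157 against 0.313 ± 0.167, SD, n = 3 each, exact permutation test, two-sided p = 0.1, the smallest that 3 against 3 can give). A second set, 4073 genes of at least 1000 bases of exon without a count in the first experiment, gave a 2.10-fold difference. The share of protein-coding genes in the counts was 75.3 ± 3.57% in Puro and 77.2 ± 1.19% in ABCC1 libraries (SD, n = 3 each, exact permutation test, p = 0.5).

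**Figure D1:**
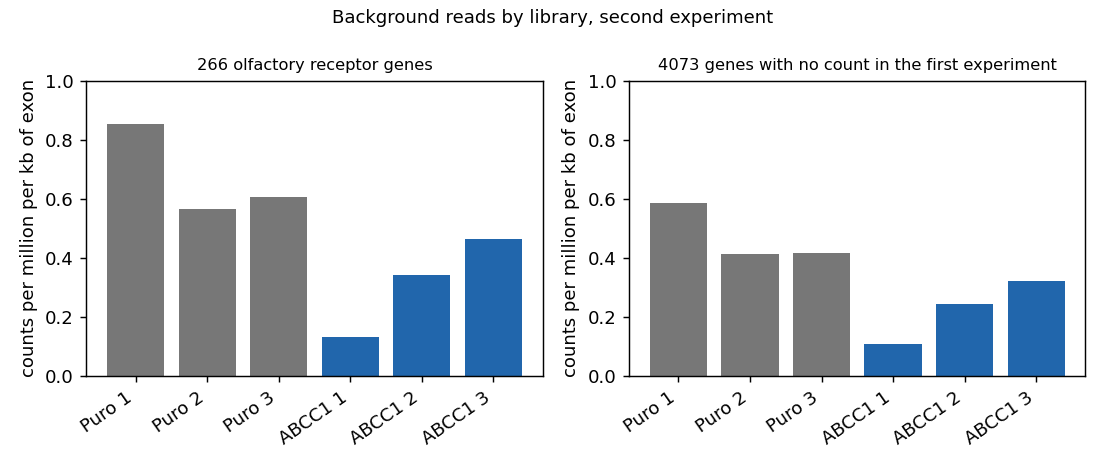
Background reads of each library, in CPM per kb of exon, on 266 olfactory receptor genes (left) and on 4073 genes without a count in the first experiment (right). Each bar is 1 library, grey for Puro and blue for ABCC1, and in both panels each of the 3 Puro bars stands above each ABCC1 bar, with ABCC1 1 the lowest.

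Since the groups differed in background, 2 scalings were used. In the first, library sizes were scaled with TMM over all 34091 genes tested. In the second they were scaled with TMM over the well-expressed genes, the 6139 protein-coding genes with a mean of at least 5 CPM per kb over the 6 libraries. Values in CPM and log2FC below are of the first scaling unless the second is named. Under the first scaling the median log2FC was -0.19 over all genes tested and 0.28 (1.21-fold) over well-expressed genes, and 87.5% of these (5372) lay above 0. The second scaling brought the well-expressed median to about 0 by moving genes down by a median of 0.28.

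The difference followed the level of a gene. Among protein-coding genes tested, the median log2FC was -0.76 under 0.5 CPM per kb, -0.67 from 0.5 to 1 and -0.19 from 1 to 2. It was 0.22 from 2 to 5, 0.29 from 5 to 20, 0.25 from 20 to 100 and 0.23 at 100 CPM per kb or more. From 2 CPM per kb upwards the medians thus lay within 0.22 to 0.29, and below it they were under 0. Within well-expressed genes the medians of 4 classes of exon length were 0.22 to 0.33 and those of 4 classes of GC content 0.22 to 0.30. The part of the background difference in these medians was not tested.

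**Figure D2:**
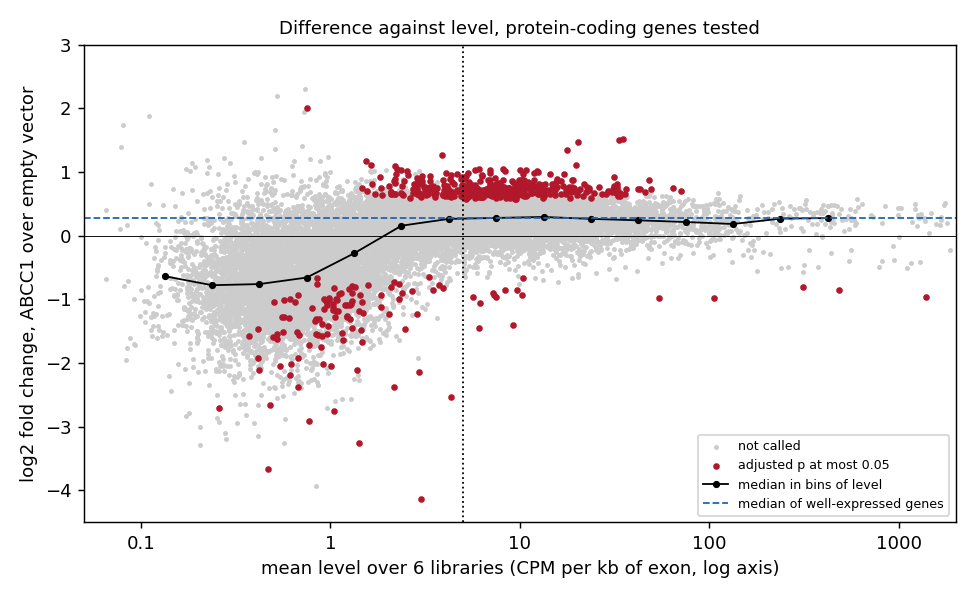
Difference between the lines against level for protein-coding genes tested, with the mean CPM per kb of exon over 6 libraries on a log x axis and the log2FC of ABCC1 over empty vector on the y axis. Red points passed an adjusted p of 0.05, the black line joins the medians of bins of level, the dashed line is the well-expressed median of 0.28 and the dotted line marks 5 CPM per kb. The black line lies below 0 for the lowest levels and near the dashed line at higher ones.

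Under the first scaling 297 of 6139 well-expressed genes passed at an adjusted p of 0.05 (4.84%), 281 higher (4.58%) and 16 lower (0.261%) in ABCC1 cells. Under the second scaling 113 passed (1.84%), 26 higher (0.424%) and 87 lower (1.42%). The direction of most calls thus turned with the scaling, although 0 genes were called in opposite directions. Both scalings gave 26 genes higher and 16 lower, and these 42 are the ones described first. Over all 34091 genes tested, 581 passed under the first scaling (1.7%), 425 higher (1.25%) and 156 lower (0.458%), and 278 under the second (0.815%), 30 higher (0.088%) and 248 lower (0.727%). At the stricter threshold of an adjusted p of 0.001 with an absolute log2FC of 1.5, 4 genes passed. The groups did not overlap in CPM for 295 of the 297 called genes and for 43.7% of all well-expressed genes.

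Many calls were lost when Puro 3 or ABCC1 2 was left out, which also makes a group smaller. Which of the 2 lay behind the loss was not tested. Without Puro 3, 2 well-expressed genes passed under the first scaling and 24 under the second. Without ABCC1 2, 15 and 16 passed. The range over the 6 libraries left out was 2 to 308 under the first scaling and 16 to 184 under the second. ARC and JUNB passed with each library left out under the first scaling, and under the second 13 genes did. These were ARC, higher, and DBH, RFK, PCK2, CHODL, H3C4, COL22A1, NXPH4, HMMR, H1-5, H3C12, CLGN and HNRNPLL, lower. With the background level of each library as a covariate, 4 well-expressed genes passed under the first scaling and 6 under the second, and those of the first were ARC, C11orf96 and HNRNPLL, which are among the 42, and EGR1, which is not. The groups do not overlap in background, so the covariate and the line can hardly be told apart with 3 libraries each.

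Among the 26 genes higher under both scalings, the ABCC1 1 library was the highest of the 6 for 19 and Puro 1 the lowest for 13. Of the 16 lower genes, Puro 3 was the highest for 11 and Puro 2 for the other 5. The background was 1.98% to 17% of the level of the 26 genes in Puro and 0.501% to 3.82% in ABCC1 libraries, and subtracting it moved no log2FC of these by more than 0.21. For the 16 lower genes it was at most 9.61% of the level in either group, and subtraction moved their log2FC by at most 0.031. The exons of 11 of the 26 and of 4 of the 16 overlap another gene on the annotation. Counting did not use strand, so for these the reads of partner genes cannot be told apart. The same holds for IER2, HOXD9, ZNF574, DBH, VCAN, MYCN, P4HA1, TIMP3 and APP, named further on.

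**Figure D3:**
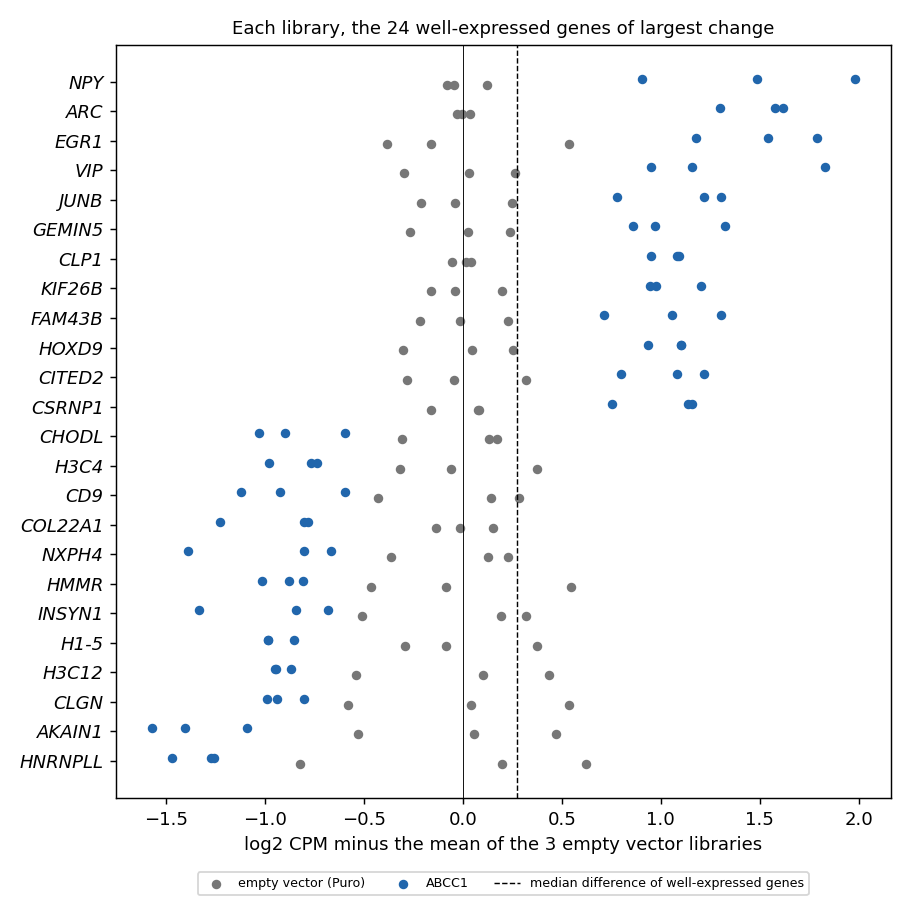
Each library for the 24 well-expressed genes of largest change, 12 higher and 12 lower, as log2 CPM minus the mean of the 3 Puro libraries. Grey points are Puro and blue points ABCC1 libraries, and the dashed line is the well-expressed median difference of 0.28. In each row the colors do not overlap, and the Puro points of HNRNPLL, CLGN and HMMR spread more than those of ARC and NPY.

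Immediate early genes and 2 neuropeptide genes made up the 5 largest rises among well-expressed genes that did not overlap. ARC, whose protein shapes synapses after activity, was at 70.6, 68.7 and 67.5 CPM in Puro and 212, 170 and 206 CPM in ABCC1 libraries. All 3 ABCC1 libraries lay far above all 3 controls, which were nearly equal. The log2FC was 1.51 ± 0.17 (SE, 2.84-fold, adjusted p = 1.03e-04) under the first and 1.22 (adjusted p = 3.09e-04) under the second scaling. EGR1, a zinc finger transcription factor (GRCh37 chr5:137801179-137805004), was at 47.4, 25.1 and 29.2 CPM in Puro and 95.0, 73.9 and 113 CPM in ABCC1 libraries. Its groups did not overlap, with Puro 1 above the other controls. EGR1 rose by a log2FC of 1.47 ± 0.21 (adjusted p = 0.00138) under the first scaling and gave 1.16 without passing under the second (adjusted p = 0.0759). With the background covariate under the first scaling it had 1.74 (adjusted p = 0.00148) and passed. JUNB, a subunit of the AP-1 factor, was at 19.6, 22.1 and 27.0 CPM in Puro and 56.1, 38.9 and 52.8 CPM in ABCC1 libraries. It rose by 1.11 ± 0.17 (adjusted p = 0.00305) and by 0.83 under the second scaling (adjusted p = 0.0135), and its exons overlap those of HOOK2. CSRNP1, a nuclear protein of the same early class, rose from 18.8, 18.7 and 15.9 CPM to 39.0, 29.9 and 39.5 CPM (log2FC 1.02, adjusted p = 0.00321, 0.73 and 0.0376 under the second scaling). IER2 passed under the first scaling (0.76, adjusted p = 0.0251) and not under the second (0.47, adjusted p = 0.138). Without Puro 3, the adjusted p was 0.0754 for EGR1, 0.0854 for CSRNP1 and 0.141 for IER2.

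Of the 39 immediate early genes listed, 17 were well expressed, and 5 of these passed higher and 0 lower under the first scaling, 3 and 0 under the second, beside 4.58% and 0.424% of well-expressed genes. Relative to the median of all well-expressed genes, their median log2FC was 0.21 higher, and 13 of the 17 lay above that median. Leaving out each library moved the relative median between 0.07 and 0.21. ATF3, a stress-induced member, did not pass (31.5, 48.9 and 57.3 CPM against 60.6, 45.1 and 44.1, log2FC 0.12 ± 0.19, adjusted p = 0.737).

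NPY, the neuropeptide that sympathetic neurons release with noradrenaline (chr7:24323782-24331484), was at 18.1, 16.1 and 15.7 CPM in Puro and 65.7, 46.5 and 31.1 CPM in ABCC1 libraries. The controls lay close together and ABCC1 1, the library of lowest background, was highest. NPY rose by 1.52 ± 0.20 (2.87-fold, adjusted p = 6.45e-04) and by 1.21 under the second scaling (adjusted p = 0.00469). VIP, a vasoactive neuropeptide (chr6:153071933-153080900), followed the same order among the ABCC1 libraries, with 18.9, 12.8 and 16.1 CPM against 56.1, 35.2 and 30.5 CPM. It rose by 1.35 ± 0.20 (adjusted p = 0.00171) and by 1.03 under the second scaling (adjusted p = 0.0227). Without Puro 3 the adjusted p was 0.0551 for NPY and 0.0754 for VIP. With the background covariate the log2FC of NPY was 0.88 (adjusted p = 0.329) and that of VIP 0.83 (adjusted p = 0.491), so neither passed. VGF, a granule protein and neuropeptide precursor, passed under the first scaling at 0.70 (adjusted p = 0.0475) and not under the second (0.41, adjusted p = 0.121).

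The promoters of EGR1 and VIP, which both rose under the first scaling, are shown as examples that hold known elements near their start sites. They run from 250 bases before to 50 after the RefSeq start on GRCh38.p14, written in the direction of the gene, with matches in capitals. In EGR1 (chr5:138465229-138465528, plus strand) the capitals mark 2 CArG boxes, the elements bound by serum response factor, at -105 and -83, and 2 half-sites of the cyclic AMP response element (CRE; TGACG, or CGTCA on the other strand). In VIP (chr6:152750547-152750846, plus strand) they mark 2 CRE half-sites, at -89 and -79.
EGR1: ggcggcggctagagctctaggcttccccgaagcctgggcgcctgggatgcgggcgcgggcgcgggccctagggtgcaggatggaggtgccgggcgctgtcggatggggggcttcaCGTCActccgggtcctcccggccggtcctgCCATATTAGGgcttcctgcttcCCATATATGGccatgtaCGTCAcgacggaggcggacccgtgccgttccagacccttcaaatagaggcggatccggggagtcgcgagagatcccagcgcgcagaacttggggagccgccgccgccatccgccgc
VIP: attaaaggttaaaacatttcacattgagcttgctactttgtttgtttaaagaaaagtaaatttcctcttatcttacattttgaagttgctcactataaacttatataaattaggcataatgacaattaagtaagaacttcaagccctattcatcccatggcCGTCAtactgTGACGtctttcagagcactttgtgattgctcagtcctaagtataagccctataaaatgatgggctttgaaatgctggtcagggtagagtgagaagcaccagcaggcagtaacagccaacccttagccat

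A CRE half-site lay in 10 of the 14 well-expressed immediate early genes that matched a promoter (71.4%), in 39.2% of well-expressed genes that did (5096 of 6139) and in 25.0% of all 27305 genes with a promoter. A CArG box lay in 2 of the 14 (14.3%), against 1.22% of well-expressed genes and 1.29% of all. Of the 26 genes higher under both scalings 20 matched, with a CRE half-site in 10 (50%) and a CArG box in 0. These counts describe letters in a window and say nothing of binding. The NPY promoter held neither form of the CRE half-site in this window. Among other genes that rose, the JUNB promoter held 1 CRE half-site and 0 CArG boxes, and that of CSRNP1 held 0 of each.

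TFRC, the transferrin receptor that brings iron into cells (chr3:195754054-195809060), was at 51.8, 72.9 and 67.5 CPM in Puro and 135, 122 and 130 CPM in ABCC1 libraries. The ABCC1 libraries were close to each other and well above each control. TFRC rose by 1.01 ± 0.17 (2.01-fold, adjusted p = 0.00626) and by 0.74 under the second scaling (adjusted p = 0.00677), with an adjusted p of 0.0854 without Puro 3 and 0.0572 without ABCC1 2. SLC30A1, the zinc exporter of the plasma membrane, rose from 53.4, 62.6 and 74.8 to 102, 102 and 98.3 CPM under the first scaling (0.66, adjusted p = 0.0440) and did not pass under the second (0.39, adjusted p = 0.117). These were the 2 members that passed higher of the 10 well-expressed genes of iron, zinc and copper handling, and 0 passed lower, and under the second scaling TFRC was the 1 of the 10. Of all well-expressed genes 4.58% and 0.424% passed higher.

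Other large rises were of genes with varied roles. GEMIN5, an RNA-binding part of the SMN complex, rose by 1.05 ± 0.17 (adjusted p = 0.00461, 0.75 and 0.0227 under the second scaling). CLP1, an RNA kinase of tRNA splicing, rose by 1.04 (adjusted p = 0.00321, 0.75 and 0.0416), with exons that overlap YPEL4 and MIR130AHG. KIF26B, a kinesin family member, rose from 98.1, 116 and 90.0 to 232, 198 and 194 CPM (1.04, adjusted p = 0.00588, 0.75 and 0.0104). Each of these 3 had groups that did not overlap. FAM43B (1.03), the homeobox gene HOXD9 (1.03) and the transcriptional coregulator CITED2 (1.02) passed under the first scaling and had adjusted p of 0.0759, 0.0615 and 0.0858 under the second.

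The 26 genes higher under both scalings also held ZNF503, described with the zinc finger genes, and 16 others, which had log2FC of 0.78 to 0.99 under the first and 0.50 to 0.72 under the second. PTPRR, a tyrosine phosphatase that acts on MAP kinases, rose from 40.9, 44.5 and 43.8 to 86.6, 97.3 and 73.3 CPM (0.99, adjusted p = 0.00461, 0.71 and 0.0136 under the second scaling). FZD7, a Wnt receptor, rose from 18.6, 23.98 and 23.95 to 41.9, 37.3 and 43.1 CPM (0.88, adjusted p = 0.00807, 0.61 and 0.0361), and APC, which promotes the breakdown of beta-catenin, from 71.7, 93.9 and 80.3 to 172, 133 and 136 CPM (0.84, adjusted p = 0.0209, 0.56 and 0.0404). In all 3 of these the groups did not overlap, and APC had 0.53 with the background covariate (adjusted p = 0.799). The rest of the 16 were C11orf96, KCTD12, UTP25, B4GAT1, GPATCH4, PLEC, ZC3H4, FBXO28, the mitochondrial ribosomal protein gene MRPS2, IRF2BP2, the mitochondrial RNA helicase gene SUPV3L1, LRRFIP1 and ACBD3.

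Zinc finger genes were called more often under the first scaling than under the second. Of 150 well-expressed members, 22 passed higher and 0 lower under the first scaling, and 1 higher and 2 lower under the second, beside 4.58% higher and 0.261% lower, and 0.424% higher and 1.42% lower, of all well-expressed genes. Their median log2FC lay 0.11 above that of well-expressed genes. ZNF503, a transcriptional repressor, was the one that passed higher under both (0.98, adjusted p = 0.00461, 0.69 and 0.0402 under the second), and its exons overlap ZNF503-AS2. ZNF30 (0.93, adjusted p = 0.00807) and ZNF574 (0.88, adjusted p = 0.0168) passed under the first only, with 0.0984 and 0.102 under the second.

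Of the 16 genes lower under both scalings, HNRNPLL fell most. HNRNPLL, a regulator of alternative splicing (chr2:38789120-38830728), was at 27.4, 55.7 and 74.5 CPM in Puro and 20.04, 20.2 and 17.5 CPM in ABCC1 libraries. The controls spread widely, with Puro 1 close to the ABCC1 libraries, which were alike. HNRNPLL fell by 1.45 ± 0.23 on the log2 scale (adjusted p = 0.00330) and by 1.70 under the second scaling (adjusted p = 7.98e-04). Of 30 well-expressed splicing and RNA-binding proteins it was the 1 that passed lower under the first scaling, and the neuronal RNA-binding protein ELAVL2 the 1 that passed higher (0.60, adjusted p = 0.0487, 0.221 under the second). MBNL2 joined HNRNPLL as lower under the second scaling (-0.70, adjusted p = 0.0465). Of all well-expressed genes 0.261% passed lower and 4.58% higher under the first scaling and 1.42% lower under the second.

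PCSK1, the convertase that cleaves prohormones in secretory granules, was at 24.5, 54.0 and 53.9 CPM in Puro and 19.3, 18.4 and 25.5 CPM in ABCC1 libraries. Its groups overlapped, since Puro 1 lay below ABCC1 3. PCSK1 fell by 1.06 (adjusted p = 0.0194) and by 1.31 under the second scaling (adjusted p = 0.00446). DBH, the enzyme that makes noradrenaline from dopamine, was at 87.4, 101 and 102 CPM in Puro and 77.0, 67.7 and 57.0 CPM in ABCC1 libraries, without overlap. It did not pass under the first scaling (-0.53 ± 0.17, adjusted p = 0.0908) and fell by 0.81 under the second (adjusted p = 0.00356). Of the 20 well-expressed genes of catecholamine synthesis and vesicles, 1 passed lower under the first scaling and 2 under the second, with 0 higher, beside 0.261% and 1.42% lower and 4.58% and 0.424% higher of all well-expressed genes. TH, the first enzyme of the pathway, had 0.54 and 0.26 (adjusted p = 0.0880 and 0.336). None of the 18 well-expressed adrenergic regulators passed under either scaling, 3 were higher and 0 lower at an unadjusted p of 0.05 under the first (36.3% and 1.34% of all well-expressed genes), and DESeq2 and limma-voom called 2 higher each (27.4% and 9.35%). MYCN was at 3507, 4029 and 3682 CPM in Puro and 5364, 5612 and 5091 CPM in ABCC1 libraries (0.52, adjusted p = 0.159, 0.24 and 0.344).

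CLGN, a chaperone of the endoplasmic reticulum, was at 171, 262 and 370 CPM in Puro and 129, 133 and 146 CPM in ABCC1 libraries. It fell by 0.98 (adjusted p = 0.0259) and by 1.23 under the second scaling (adjusted p = 0.00278). COL22A1, a collagen of tissue junctions, fell from 68.3, 83.4 and 74.4 to 32.1, 43.7 and 43.1 CPM (-0.93, adjusted p = 0.00807, -1.20 and 7.98e-04). Neither group of these overlapped the other. The tetraspanin CD9 (-0.89), the lectin CHODL (-0.85), the neurexophilin NXPH4 (-0.94) and the riboflavin kinase RFK (-0.66) fell without overlap, with adjusted p of 0.0204, 0.0181, 0.0189 and 0.0392. Under the second scaling they fell by 1.15, 1.11, 1.20 and 0.93 (adjusted p = 0.00446, 0.00223, 0.00371 and 0.00234). AKAIN1, INSYN1 and the protocadherin PCDH9 fell by 1.39, 0.96 and 0.86 (adjusted p = 0.0202, 0.0284 and 0.0484), and by 1.65, 1.22 and 1.11 under the second scaling (adjusted p = 0.0171, 0.0136 and 0.00943). PCDH9 overlapped between the groups, and its exons overlap PCDH9-AS1.

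Histone genes were lower as a group than the other well-expressed genes. H1-5, a linker histone (chr6:27834570-27835359), was at 1344, 1165 and 1848 CPM in Puro and 788, 721 and 721 CPM in ABCC1 libraries. The groups stood well apart, with Puro 3 highest. H1-5 fell by 0.97 ± 0.21 on the log2 scale (1.95-fold lower, adjusted p = 0.0240) and by 1.25 under the second scaling (adjusted p = 0.00122). H3C4, an H3 gene, was at 508, 426 and 687 CPM in Puro and 318, 269 and 311 CPM in ABCC1 libraries, and its exons overlap H2AC7. It fell by 0.85 (adjusted p = 0.0315, -1.14 and 0.00278). The others that passed under both scalings were H3C12 (-0.97, adjusted p = 0.0186, -1.27 and 0.00356) and H2AC13 (-0.81, adjusted p = 0.0397, -1.08 and 0.00419). Without Puro 3 the adjusted p under the first scaling was 0.181 for H1-5, 0.215 for H3C4, 0.174 for H3C12 and 0.250 for H2AC13.

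Of 35 clustered histone genes found by symbol, 28 were well expressed. Symbols matched 39880 of the 57905 Ensembl IDs, so the list may lack members. Under the first scaling 4 passed lower, and under the second 14, with 0 higher in either, beside 0.261% and 1.42% of well-expressed genes. All 28 lay below the well-expressed median, and their own median was 0.67 lower, between 0.52 and 0.78 lower with each library left out. The summed level of the tested members was 11473, 11403 and 16652 CPM per kb in Puro and 9429, 8687 and 9768 in ABCC1 libraries, with Puro 3 apart from the other controls. Their genes are near-identical copies within a class, so that counts of single members are uncertain.

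Genes of mitosis lay lower by less. Of 30 well-expressed members, 0 passed in either direction under the first scaling, and 9 passed lower and 0 higher under the second, beside 1.42% lower of all well-expressed genes there. At an unadjusted p of 0.05, edgeR had 8 lower (26.7%) under the first scaling and 23 (76.7%) under the second, against 1.34% and 10.7% of all well-expressed genes, and DESeq2 and limma-voom called 0. All 30 lay below the well-expressed median, their own median being 0.51 lower (0.42 to 0.57 lower with each library left out). CDK1, the kinase that drives entry into mitosis, was at 148, 171 and 259 CPM in Puro and 139, 125 and 131 CPM in ABCC1 libraries. The groups did not overlap, and the gap rested mostly on Puro 3. CDK1 had a log2FC of -0.55 ± 0.20 (adjusted p = 0.120) and fell by 0.82 under the second scaling (adjusted p = 0.0167). CDC20, an activator of the anaphase-promoting complex (-0.55, adjusted p = 0.0810), and the kinetochore motor CENPE (-0.59, adjusted p = 0.103) fell under the second scaling by 0.81 and 0.86 (adjusted p = 0.0198 and 0.0155). The summed level of the list was 489, 679 and 733 CPM per kb in Puro and 562, 534 and 575 in ABCC1 libraries, so that Puro 1 lay below all ABCC1 libraries on this scale. HMMR, a spindle protein outside the list, fell from 26.95, 35.1 and 54.2 to 21.2, 20.2 and 18.4 CPM (-0.96, adjusted p = 0.0181, -1.22 and 0.00241), and its exons overlap HMMR-AS1. Of 29 well-expressed genes of DNA replication, 0 passed under either scaling, and their median lay 0.22 lower than the well-expressed one, with 26 below it. At an unadjusted p of 0.05, edgeR had 1 higher under the first scaling (3.45%, against 36.3% of all well-expressed genes) and 7 lower under the second (24.1%, against 10.7%), and DESeq2 and limma-voom called 0.

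**Figure D4:**
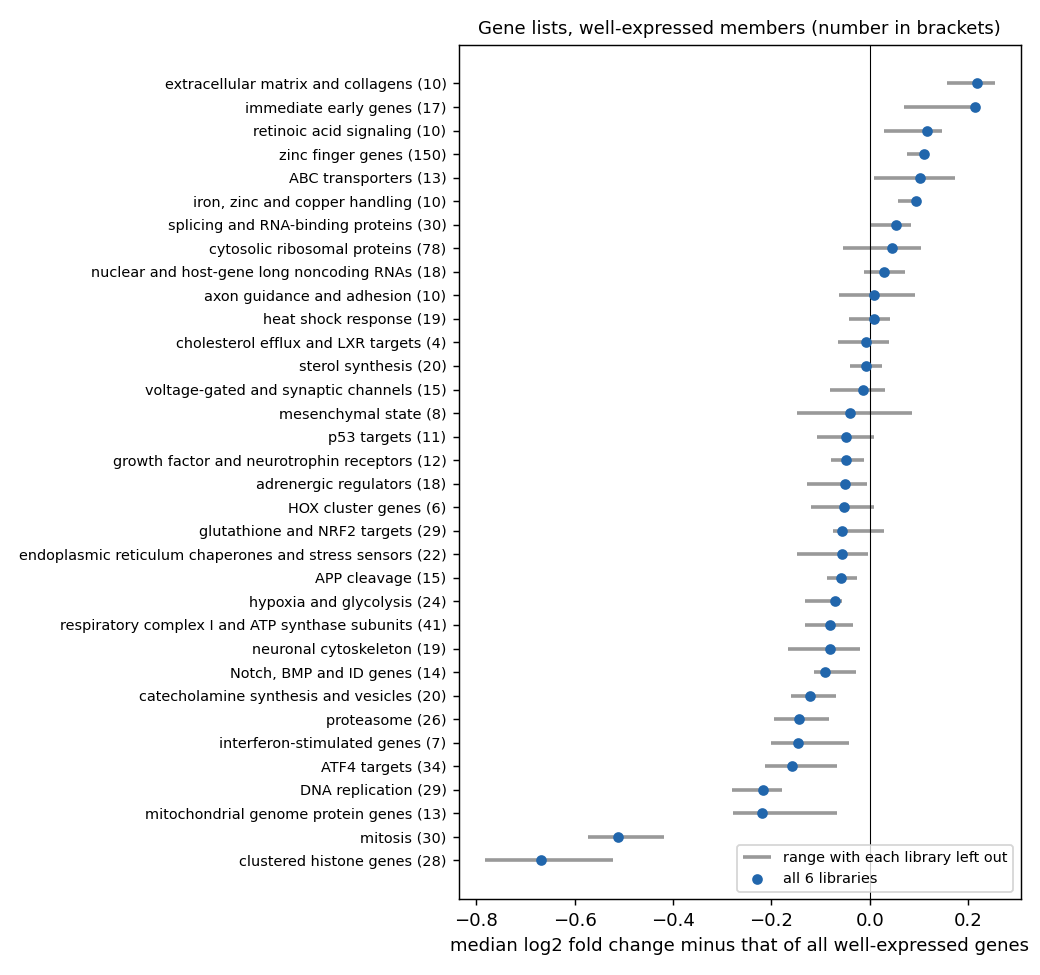
Median log2FC of each gene list minus that of all well-expressed genes, for lists of at least 4 well-expressed members (number in brackets). Blue points are all 6 libraries and grey bars the range with each library left out. Histones (-0.67) and mitosis (-0.51) stand at the lower end, apart from the rest, and matrix (0.22) and immediate early genes (0.21) at the upper end.

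The promoters of H1-5 and HMMR are shown as examples of a histone gene and a gene of the mitotic spindle that fell under both scalings and hold a CCAAT box. In H1-5 (chr6:27867539-27867838, GRCh38.p14, minus strand) the capitals mark 2 CCAAT boxes (CCAAT, or ATTGG on the other strand), bound by the factor NF-Y, at -66 and -53. In HMMR (chr5:163460382-163460681, plus strand) they mark 5 CCAAT boxes and 2 copies of the cell cycle genes homology region (CHR; TTTGAA, or TTCAAA), an element of genes of G2 and M phase.
H1-5: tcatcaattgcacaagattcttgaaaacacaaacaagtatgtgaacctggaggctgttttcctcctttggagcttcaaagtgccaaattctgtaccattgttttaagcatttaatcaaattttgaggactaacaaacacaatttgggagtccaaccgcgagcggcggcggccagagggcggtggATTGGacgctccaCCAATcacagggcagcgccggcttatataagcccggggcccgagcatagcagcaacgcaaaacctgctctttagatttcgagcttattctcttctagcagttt
HMMR: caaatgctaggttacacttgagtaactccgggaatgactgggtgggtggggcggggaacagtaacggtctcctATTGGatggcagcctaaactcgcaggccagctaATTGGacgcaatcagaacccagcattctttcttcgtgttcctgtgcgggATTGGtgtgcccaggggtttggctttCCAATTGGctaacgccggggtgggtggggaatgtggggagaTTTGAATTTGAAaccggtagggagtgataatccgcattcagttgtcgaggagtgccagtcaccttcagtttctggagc

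A CCAAT box lay in 23 of the 26 well-expressed histone genes that matched a promoter (88.5%) and in 19 of the 24 mitosis genes that did (79.2%), against 38.5% of well-expressed and 35.7% of all promoters. The CHR lay in 15 of the 24 mitosis genes (62.5%), against 9.69% and 15.4%. Of the 87 genes lower under the second scaling, 71 matched, with a CCAAT box in 59.2% and a CHR in 33.8%. This set includes the histone and mitosis genes that passed.

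Most other lists gave few calls. The well-expressed members of 8 lists were 78 cytosolic ribosomal protein genes, 34 targets of ATF4, 26 proteasome genes and 13 ABC transporters. There were also 29 glutathione and NRF2 targets, 20 genes of sterol synthesis and 19 of the heat shock response. The last list held 41 subunits of complex I and ATP synthase. Of these 260 genes 0 passed under either scaling in edgeR, against 4.84% and 1.84% of all well-expressed genes. The medians of the 8 lists lay between -0.16 and 0.10 relative to well-expressed genes. Among members tested at lower levels, 1 ABC transporter passed lower under each scaling. Under the first scaling 1 glutathione or NRF2 gene passed higher, and under the second 1 sterol gene passed lower. At an unadjusted p of 0.05, 66 of the 260 were higher and 1 lower under the first scaling and 8 and 26 under the second. All well-expressed genes gave 36.3% and 1.34%, and 7.95% and 10.7%, against 25.4% and 0.385%, and 3.08% and 10% here. DESeq2 called 67 higher (25.8%, against 27.4% of all) and limma-voom 12 (4.62%, against 9.35%). The lists differed within this pool. DESeq2 called 36 of the 78 ribosomal protein genes higher (46.2%) and 0 of the 26 proteasome genes. In the other lists its share ran from 7.32% for complex I and ATP synthase to 30.8% for ABC transporters. Of the 78 ribosomal protein genes limma-voom called 2 (2.56%). Of 10 well-expressed matrix genes 1 passed under the first scaling, the proteoglycan VCAN (58.2, 103 and 82.3 against 137, 125 and 140 CPM, 0.72, adjusted p = 0.0493), and 0 under the second. The other tools gave more calls among the 10. At an unadjusted p of 0.05 under the first scaling 7 were higher (70%, against 36.3% of all well-expressed genes), DESeq2 called 7 (70%, against 27.4%) and limma-voom 3 (30%, against 9.35%). Of 15 well-expressed genes of APP cleavage 1 passed under the first, TIMP1, an inhibitor of metalloproteinases (0.73, adjusted p = 0.0376), and 0 under the second. Of all well-expressed genes 4.58% passed higher under the first scaling. Single members that passed higher under the first scaling alone included MYLIP, a ligase that degrades the LDL receptor (0.95), the retinoic acid binding protein CRABP2 (0.74), GADD45A of the p53 response (0.71) and the neurofilament NEFH (0.65). Single members lower under the second alone included BMP7 (-0.71), the collagen hydroxylase subunit P4HA1 (-0.86), the growth cone protein GAP43 (-0.75) and MT-ND6 (-0.69), the 1 of 13 protein genes of the mitochondrial genome that passed, beside 1.42% lower of all well-expressed genes.

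The study followed TIMP3 and CD38 as candidate genes and measured cleavage products of the APP protein. TIMP3, an inhibitor of metalloproteinases that cleave APP among other proteins, was at 12.7, 13.8 and 14.5 CPM in Puro and 6.84, 8.61 and 9.39 CPM in ABCC1 libraries. The groups did not overlap, and the log2FC was -0.72 ± 0.20 (adjusted p = 0.0599) under the first scaling and -0.99 (adjusted p = 0.0391), which passed, under the second. TIMP3 lay below the level of well-expressed genes. Genes tested outside the well-expressed set had a median log2FC of -0.40 under the first scaling and -0.68 under the second. CD38, an enzyme that consumes NAD, was at 4.11, 4.13 and 4.43 CPM against 1.62, 3.47 and 3.23 CPM, with -0.61 ± 0.38 (adjusted p = 0.351) and -0.87 (adjusted p = 0.244). The background was 110% of the level of CD38 in Puro and 77.2% in ABCC1 libraries, so a difference in it was not detectable apart from the background here. Native APP, counted apart from the vector copy, had 2258, 2991 and 2622 CPM in Puro and 3352, 2749 and 2514 CPM in ABCC1 libraries, with overlap. Its log2FC was 0.13 ± 0.21 (adjusted p = 0.744) and turned to -0.15 under the second scaling (adjusted p = 0.531).

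Below the level of well-expressed genes, ANXA10, SCGN and CLSTN2 fell under both scalings. ANXA10, an annexin, was at 7.51, 9.94 and 13.5 CPM in Puro and 0.463, 0.741 and 0.554 CPM in ABCC1 libraries. All ABCC1 libraries lay at the background, which was 96.6% of the level there. The log2FC was -4.14 ± 0.36 (adjusted p = 9.21e-07, -4.40 and 1.86e-05 under the second scaling). SCGN, the calcium-binding secretagogin of neuroendocrine cells, was at 7.55, 11.3 and 13.4 CPM in Puro and 1.54, 1.20 and 2.74 CPM in ABCC1 libraries, without overlap (-2.54 ± 0.33, adjusted p = 5.73e-04, -2.79 and 0.00122). CLSTN2, a synaptic calsyntenin, fell from 49.8, 67.4 and 59.6 to 30.5, 21.9 and 22.8 CPM (-1.23 ± 0.17, adjusted p = 0.00134, -1.51 and 1.86e-05). Under the first scaling ANXA10 and CLSTN2 passed with each library left out, and SCGN had an adjusted p of 0.0556 without Puro 3.

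The first and the third experiment compared the same kinds of line with their own Puro libraries, so no control library is shared. If the second used cryopreserved cells, as taken here, its lines may be those of the first. Agreement with the first would then not be between independent lines. The third would be of newly transfected lines. The first used another library kit, made from mRNA. Background reads were at 0.00217 to 0.00374 CPM per kb in the first experiment and 1.10 to 1.91 in the third, against 0.133 to 0.855 in the second, and the part of this in differences between experiments was not tested. Of the 26 genes higher under both scalings, 24 passed higher in the first experiment, where 19% of the well-expressed genes tested did, and 21 in the third, where 7.75% did. Of the 16 lower genes, 12 were tested in the first experiment and all 12 passed lower (22.2% of well-expressed genes did), and 9 of the 16 passed lower in the third (1.11%). The 4 lower genes not tested in the first were histone genes. ARC was higher by 1.18 in the first and by 2.24 in the third, EGR1 by 0.96 and 2.31, and TFRC by 1.28 and 1.07. HNRNPLL was lower by 1.61 and 1.39 there, and HMMR by 0.58 and 0.89. Mitosis genes lay 0.29 below the well-expressed median in the first (25 of 30 passed lower) and 0.29 below in the third (3 passed lower). Histone genes lay 0.19 below it in the third, with 2 of 28 passing lower, and of 16 tested in the first, 4 passed higher and 0 lower.

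**Figure D5:**
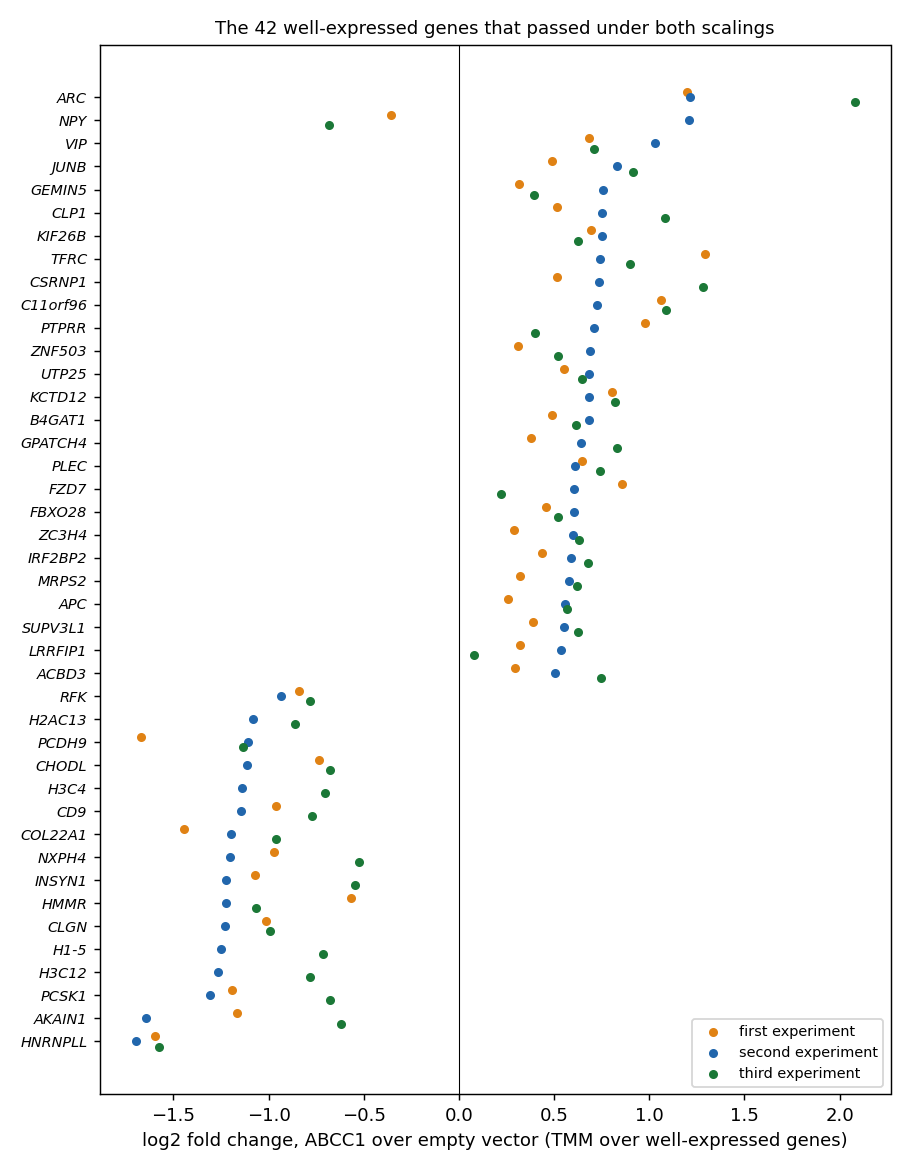
Log2FC of ABCC1 over empty vector in the first (orange), second (blue) and the third (green) experiments for the 42 well-expressed genes that passed under both scalings, with TMM over well-expressed genes. Most genes lie on 1 side of 0 in each experiment. NPY stands on opposite sides, and histone genes have no value in the first.

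The difference of the effect between experiments was tested in joint fits. Between the second and the third experiment it passed for 3 of 41448 genes (0.00724%), of which 1 was well expressed (0.0163%), NPY. Its log2FC was 1.52 in the second, -0.37 in the first (adjusted p = 0.00110) and -0.52 in the third (adjusted p = 0.152). The difference was 2.01 from the third (adjusted p = 0.00194) and 1.79 from the first (adjusted p = 4.56e-05). Between the second and first experiments the effect differed for 378 of 36290 genes (1.04%), of which 20 were well expressed (0.326%).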

How the data were processed

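RNA of 6 libraries was made with the Pico kit of the SMARTer line for stranded total RNA and sequenced. Per the labels and the study's methods, the authors aligned the reads with STAR 2.7.3a to GRCh37, counted read pairs on exons with featureCounts (Subread 2.0.0) ignoring strand, and deposited the raw counts per gene. The tool bcl2fastq 2.18 is named in the submitters' processing notes. From the counts, only rows of Ensembl genes were fitted (57905 listed), and spike-ins and vector sequences were left out of library sizes and tests. Symbols (39880 matched) and biotypes came from the reference tables.

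Genes were kept with filterByExpr (minimum count 10), scaled with TMM and compared with the robust quasi-likelihood test of edgeR 4.0.16 in R 4.3.3. Two-sided p-values were adjusted with the Benjamini-Hochberg procedure across the 34091 genes, and genes were called at 0.05. Standard errors (SE) were taken from the log2FC and the F statistic. CPM are on TMM-scaled totals. CPM per kb divides by the union of a gene's exons. Background is counts per kb on silent genes divided by the library's Ensembl total. Exact permutation tests used log2 CPM with 0.1 added for single genes and the values themselves for library measures. Differences of the effect between experiments were tested as the interaction of experiment and line in joint fits of 12 libraries. Alternatives were DESeq2 1.42.0, limma-voom (limma 3.58.1), RLE size factors, TMM over well-expressed genes, other filters, the replicate block, a spread shared across 18 libraries, protein-coding genes only, a background covariate and each library left out.

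The genes named were the 12 largest rises and falls without overlap among well-expressed genes called, up to 6 members of each list by adjusted p (4 without a call), marker genes, ABCC1, APP, TIMP3, CD38, MYCN and the 5 smallest adjusted p. One gene of this rule is not reported here. ATF3, MBNL2, PCK2 and the further genes that passed under both scalings fall outside this rule and were chosen after their values were seen. The members, lists and rules were chosen with earlier results of these data known. Libraries of a group differed by a chi-square of 9.57 to 25.8 per degree of freedom, so each was used as a replicate. On simulated counts of 31585 genes with this design, the test recovered 89% of changes of 1 on the log2 scale. It recovered 96.9% of changes of 2, and 2.65% of the calls were false. How these shares change with a difference in background between Puro and ABCC1 libraries was not tested. Depth per library is given with the results, and counts of 3 or fewer were treated as a floor. Promoters are RefSeq sequences.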

Additional observations from a re-analysis of the deposited data

Results flagged for a closer look

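The effect of ABCC1 differed between the second experiment and another in joint fits for 7 of the named genes, each given as the interaction term of the joint fit, second experiment minus the other. The log2FC beside it come from the separate fits, so their subtraction differs slightly from that term. NPY stood 1.79 above the first experiment (adjusted p = 4.56e-05) and 2.01 above the third (adjusted p = 0.00194), with a rise in the second experiment and log2FC of -0.37 and -0.52 in the others. VCAN stood 0.83 above the first (adjusted p = 0.0313), with 0.72 against -0.20. P4HA1 stood 0.61 below it, a difference of -0.61 (adjusted p = 0.0467), with -0.58 against -0.06.

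For 4 genes the fall of the first experiment was larger. SCGN differed by 3.17 (adjusted p = 7.57e-08; -2.54 against -5.77), ANXA10 by 3.61 (adjusted p = 0.00261; -4.14 against -7.85), CD38 by 2.23 (adjusted p = 0.0447; -0.61 against -2.95) and TIMP3 by 1.14 (adjusted p = 6.46e-04; -0.72 against -1.95). Under TMM over well-expressed genes the difference of CD38 no longer passed (adjusted p = 0.117). Background reads made up 96.6% of the level of ANXA10 and 77.2% of that of CD38 in the ABCC1 libraries of the second experiment, and their part in these differences was not tested. ANXA10 also differed from the third experiment by -4.14 (adjusted p = 6.03e-05), where its log2FC was -0.02 (adjusted p = 0.989). The background was 1.10 to 1.91 CPM per kb in the third experiment, 0.133 to 0.855 in the second and 0.00217 to 0.00374 in the first, and its part was not tested. Groups of 3 libraries were not tested for single libraries far from the rest.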

How the results depend on the processing

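The count of well-expressed genes that differed (297) was 1697 with DESeq2, 596 with limma-voom, 467 with RLE size factors, 611 without the filter, 1248 with a spread shared across 18 libraries and 473 among protein-coding genes only. It was 113 with TMM over well-expressed genes, 43 at a minimum of 20 CPM per kb, 4 with the background covariate and, added after seeing the data, 6 with both TMM over well-expressed genes and the covariate. Each library left out gave 2 to 308, and under TMM over well-expressed genes, also added, 184, 40 and 24 without Puro 1, 2 and 3 and 100, 16 and 113 without ABCC1 1, 2 and 3. The count over all genes tested (581) was 2850, 1302, 1086, 1402, 4919 and 1005 under the first 6 of these settings in the same order, 278 with TMM over well-expressed genes and 10 with the covariate, and each library left out gave 5 (without Puro 3) to 1258 (without ABCC1 3). Of these, 73.1% were higher, against 87.3% with DESeq2, 59.7% with limma-voom, 44.4% with 10 counts in every library, 42.8% with the shared spread and 57.9% among protein-coding genes. The 378 differences of the effect from the first experiment became 594 with DESeq2, 216 with 10 counts in every library and 209 with the replicate block, and the 3 differences from the third became 3 or 4.

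The log2FC of native ABCC1 turned to -0.0035 and that of APP to -0.15 with TMM over well-expressed genes, and APP to -0.21 with the covariate. No other named gene changed sign. Over the named genes and settings, 852 values were counted as kept, 197 lost the threshold, 59 gained it and 3 changed sign. Of the 852, 57 came from subtracting the background, which gives no p-value, and moved by less than the spread between replicates. Another 8 moved by more than that spread on subtraction. The rest of the 852 kept their side of the threshold. The causes were not tested.

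The replicate numbers of the labels were tried as a block. Same-numbered libraries correlated at 0.356, -0.060 and 0.276 in their deviations on well-expressed genes, so the numbers were not taken as pairs, and libraries 1 and 3 but not 2 correlated best with their own number. With the block, 273 well-expressed genes and 703 of all genes passed, 61.9% of the latter higher, and under TMM over well-expressed genes 202 passed. Levels near the background of 0.133 to 0.855 CPM per kb cannot be told apart from it.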

Other observations

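The 6 vector sequences counted beside the genes include EGFP, which no label names for these cells. It had 31, 38 and 17 counts in Puro 1, 2 and 3 and 0, 0 and 2 counts in ABCC1 1, 2 and 3, of 19577853 to 30996228 assigned pairs per library. The hygromycin resistance gene of the APP vector was at 622 ± 137 CPM in Puro and 519 ± 49.6 CPM in ABCC1 libraries (SD, n = 3 each, exact permutation test, two-sided p = 0.3).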
